A study of Mus musculus with 2 samples.

Results

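The genes of SR splicing factors, of the kinases that act on them, and of the heterogeneous nuclear ribonucleoproteins (hnRNPs) were examined in mouse lung cancer cells before and after restoration of *Runx3*. Members were taken by symbol: every gene named *Srsf* with a number or starting with *Hnrnp*, together with *Tra2a*, *Tra2b*, *Clk1* to *Clk4*, *Ptbp1* to *Ptbp3*, *Rbm5*, *Rbm39*, *Son*, *Srrm1* and *Srrm2*. This gave 45 of the 23183 genes in the deposited values. They fall into 11 SR proteins, 2 transformer-2 proteins, 5 SR-related proteins, 4 CLK kinases, 20 hnRNP proteins and 3 PTB proteins.

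The KPR- cells are an immortalized line from lung cancers of KPRL/F-TAM(-) mice, which were not given tamoxifen. Intranasal adenovirus with Cre under the CMV promoter had activated an oncogenic *K-Ras* allele and a Tomato reporter in these mice, and deleted floxed *p53* and 1 floxed *Runx3* allele. A *Frt-Stop-Frt* cassette kept the other *Runx3* allele off, so the genotype is given as RUNX3 -/-. In KPR_restored cells, given as RUNX3 -/+, 4-hydroxytamoxifen (4-OHT) had switched on Flp ERT2 to cut out that cassette, and all other alleles are shared. The titles place the KPR- library at 0 h and the KPR_restored library at 16 h, whereas the treatment field lists 1 μM 4-OHT for both. Each group is 1 library, so no difference has a replicate check and no p-value was computed, and *Runx3*, 4-OHT and time in culture cannot be told apart. How many mice or clones the line came from is not given in the sources used here.

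SR proteins and hnRNPs bind pre-mRNA and decide with the spliceosome which exons are joined. SR proteins carry RNA recognition motifs and a tail of arginine-serine repeats, and mostly favour the use of the exons they bind. CLK kinases phosphorylate that tail and release SR proteins from nuclear speckles. Many hnRNPs act as repressors of exons, and others package nascent transcripts, stabilize mRNA or carry it to the cytoplasm. Most of these genes limit their own output by splicing in a poison exon or keeping an intron, which sends the transcript to decay or holds it in the nucleus. A value per gene does not separate such transcripts from those that encode protein.

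The values are FPKM, fragment counts scaled by transcript length and library depth, with 1 value per gene and library. Steps in the low values gave depths of about 21850000 and 22250000 fragments for KPR- and KPR_restored. *Runx3* was at 0.348 and 0.349 FPKM, which cannot show whether the labels are right, and directions given here are those of the library labelled KPR_restored against the library labelled KPR-. Of 10 markers of lung epithelium, *Epcam*, *Cdh1*, *Krt8*, *Krt18* and *Krt19* were between 91.6 and 1931 FPKM. The defining markers of alveolar and club cells were absent: *Sftpc*, *Sftpb*, *Sftpa1* and *Scgb1a1* were listed at 0 and *Nkx2-1* was under 0.05 FPKM in both. Among leukocyte markers, *Cd3e* was listed at 0 and *Ptprc* was under 0.01 FPKM in both, while *Cd68*, a macrophage protein, was at 3.08 and 6.78 FPKM. The endothelial receptor *Kdr* was at 1.10 and 2.05 FPKM, with *Pecam1* and *Cdh5* under 0.2 FPKM. Of the 5 mesenchymal markers, *Col1a1* was at 12.2 and 4.21 FPKM and *Vim*, common in cultured cells, at 1777 and 1464 FPKM. The others were low, with *Pdgfra* at 0.273 and 0.363 FPKM and *Col1a2* and *Pdgfrb* lower still. The part of these markers in the results was not tested. In bulk RNA, a lower level may mean fewer cells with the transcript or less of it per cell, which cannot be told apart.

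Many of the splicing regulators were abundant in both libraries. Ranks by mean FPKM among all genes ran from 153 for *Hnrnpf* to 7509 for *Srsf4* and 16165 for *Srsf12*. In all, 44 of the 45 members had a mean of at least 1 FPKM, 31 had at least 50 and 17 had at least 100, a level reached by 835 genes. The exception was *Srsf12*, an SR protein that opposes splicing, which was listed at 0 in KPR- and at 0.0163 FPKM in KPR_restored, a level of about 1 fragment. The summed level of the 45 members was 5867 FPKM in KPR- and 5196 FPKM in KPR_restored, or 1.13% and 0.992% of all FPKM. The 20 hnRNP genes held 3974 and 3551 FPKM of these sums, the 11 SR protein genes 1003 and 827 FPKM, and the 4 kinase genes 83.8 and 111 FPKM.

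**Figure D1:**
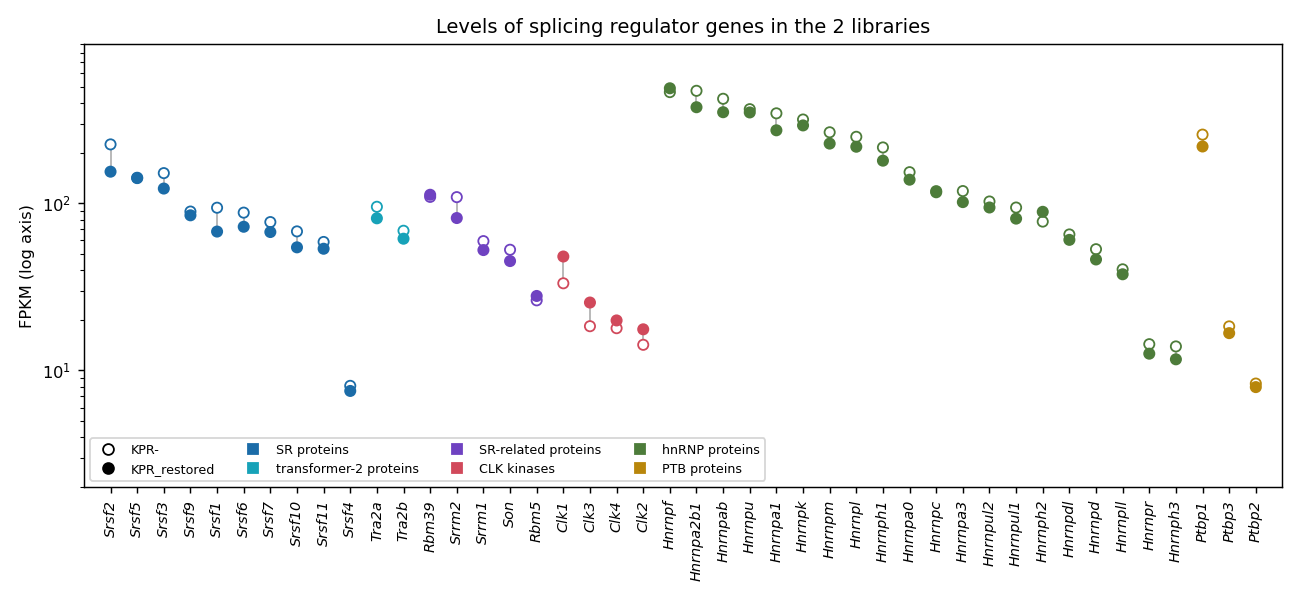
FPKM (log axis) of the 44 members with a mean of at least 1 FPKM, by class and in order of mean level, with KPR- as open and KPR_restored as filled circles and no error bars since each library is 1 sample. The filled circle lies below the open one for all 10 SR protein genes and above it for all 4 CLK genes.

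The 5 highest members were all hnRNPs. *Hnrnpf*, which binds G-rich tracts, had 464 FPKM in KPR- and 489 FPKM in KPR_restored. *Hnrnpa2b1*, a repressor that also sorts RNA for transport, had 472 and 376 FPKM, and *Hnrnpab* had 423 and 351 FPKM. *Hnrnpu*, a nuclear scaffold protein, had 366 and 350 FPKM, and *Hnrnpa1*, the best known antagonist of *Srsf1*, had 346 and 274 FPKM. *Hnrnpa2b1* was first in KPR- and *Hnrnpf* first in KPR_restored. At the low end were *Srsf4*, at 8.09 and 7.54 FPKM, and *Ptbp2*, at 8.35 and 7.95 FPKM. No spread between cultures is at hand to say which neighbours in this order differ.

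Differences were taken as log2(FPKM + 0.005) in KPR_restored minus KPR-, and a gene was called at 0.5 or more either way. On that rule 1 member was called lower, *Srsf2*, and 1 higher, *Clk1*. The call of *Clk1* was lost when the libraries were scaled to the same upper quartile (0.49) or the trend with transcript length was removed (0.45). Among the 11231 genes with a mean of at least 1 FPKM, 9.29% were called lower and 12.1% higher. Among the 1795 genes with at least 50 FPKM, the level of most members, 6.46% were called lower and 8.36% higher. Calls were no more frequent among the members than among all genes.

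Smaller differences leaned to one side. A difference below 0 was found for 36 of the 44 members, against 49.0% of all genes, and for 28 of the 31 members with at least 50 FPKM, against 51.9% of genes at that level. The median over the 44 members was -0.17 and that over all genes 0.0086. Members also lay close together: their interquartile range spanned 0.17 on the log2 scale, from -0.24 to -0.069, while that of all genes spanned 0.50 and that of genes with at least 50 FPKM spanned 0.39. Leaving out the CLK kinases, 36 of 40 members were below 0 and the median was -0.19.

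**Figure D2:**
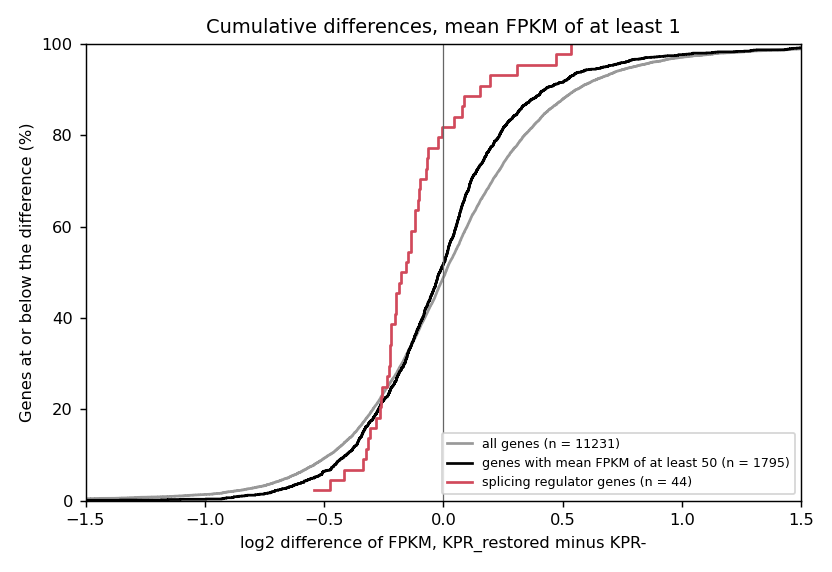
Share of genes (percent) at or below each log2 difference of FPKM, KPR_restored minus KPR-, for all 11231 genes with a mean of at least 1 FPKM, the 1795 with at least 50 FPKM and the 44 members. The members' curve is steep and reaches 81.8% at 0, where the other curves are at 49.0% and 51.9%.

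Counting error was small for most members when the longest transcript was used. Fragments behind each value were estimated from the depth and the longest annotated transcript with a RefSeq match, or the longest of all where none matched. These estimates were at least 343 for each of the 44 members. They gave exact 95% Clopper-Pearson intervals that cover counting error only. The interval lay below 0 for 31 members, above 0 for 6 and held 0 for 7. Among 11142 genes with a mean of at least 1 FPKM and an estimate, the share was 33.0% below and 34.3% above 0. These shares are not matched in level. Higher genes have more fragments and narrower intervals, and 31 of the 44 members had at least 50 FPKM. With the shortest annotated coding transcript, often a partial one, 24 members stayed below 0, 3 stayed above 0 and 17 held 0. The lowest estimate for a member was then 31 fragments. For *Clk1*, *Srsf3*, *Srsf4*, *Hnrnpa0*, *Hnrnpll*, *Hnrnpu* and *Hnrnpul2* both choices have the same length. Their intervals could not change, so this alternative does not check them. These intervals compare the 2 libraries and say nothing of cultures.

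**Figure D3:**
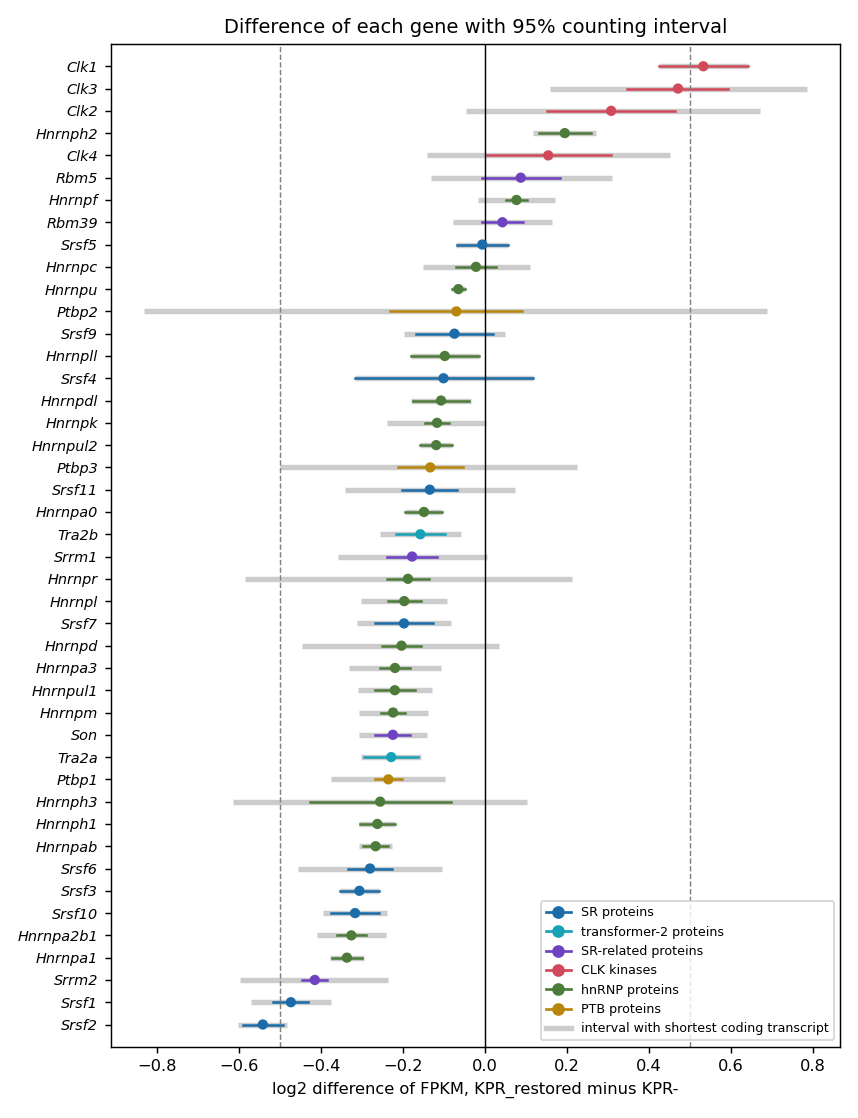
The log2 difference of each of the 44 members, KPR_restored minus KPR-, with its 95% counting interval from the longest RefSeq-matched transcript (coloured line) and from the shortest coding one (grey bar). Dashed lines mark the threshold of 0.5, which *Srsf2* and *Clk1* pass, and all 4 kinases lie right of 0.

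All 10 expressed SR protein genes had a difference below 0, with a median of -0.24, and the difference of their summed level was -17.5%. *Srsf2* (SC35), a nuclear speckle protein that promotes exon inclusion, lies on chromosome 11 of GRCm38 from 116849901 to 116853094 (minus strand). It fell from 226 to 155 FPKM, a log2 difference of -0.54 (counting interval -0.59 to -0.49). *Srsf1* (SF2/ASF), an oncogenic SR protein in several cancers, lies on the same chromosome and went from 94.2 to 67.8 FPKM, with a difference of -0.47 and an interval of -0.52 to -0.43. These are the lowest differences among the 44 members, and the interval of *Srsf2* holds the threshold.

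Of the others, *Srsf10*, which represses splicing when dephosphorylated, had 68.0 and 54.6 FPKM and a difference of -0.32. *Srsf3*, the smallest SR protein and a link to mRNA export, had 152 and 123 FPKM, and *Srsf6* had 88.0 and 72.5 FPKM, with differences of -0.31 and -0.28. *Srsf7*, also an export adaptor, had 77.3 and 67.4 FPKM (-0.20), and *Srsf11* had 58.8 and 53.5 FPKM (-0.14). These 7 genes have intervals below 0 with the longest transcript, and that of *Srsf11* held 0 with the shortest coding one. The intervals of *Srsf4* (-0.10), *Srsf9* (-0.075) and *Srsf5* held 0. *Srsf9* had 89.4 and 84.9 FPKM, and *Srsf5*, the SR gene nearest to no difference, had 142.4 and 141.7 FPKM (-0.0068). The ratio of *Srsf2* to *Srsf5* levels was 1.58 in KPR- and 1.09 in KPR_restored.

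Because *Runx3* encodes a DNA-binding factor, the promoters of the members that differed most are shown. Each line holds the 250 bases before the transcription start, on the gene's own strand, from RefSeq on GRCm38.p6. Capitals mark the core Runx motif, searched as ACCACA or ACCGCA on both strands. The positions are chr11:116853095-116853344 (minus strand) for *Srsf2*, chr11:88047123-88047372 (plus strand) for *Srsf1* and chr9:57765115-57765364 (minus strand) for *Clk3*.
Srsf2: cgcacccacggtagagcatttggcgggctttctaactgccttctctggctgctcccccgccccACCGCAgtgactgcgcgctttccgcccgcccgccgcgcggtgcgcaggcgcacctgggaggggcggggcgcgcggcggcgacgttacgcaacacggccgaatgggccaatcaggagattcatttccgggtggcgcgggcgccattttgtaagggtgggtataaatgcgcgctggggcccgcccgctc
Srsf1: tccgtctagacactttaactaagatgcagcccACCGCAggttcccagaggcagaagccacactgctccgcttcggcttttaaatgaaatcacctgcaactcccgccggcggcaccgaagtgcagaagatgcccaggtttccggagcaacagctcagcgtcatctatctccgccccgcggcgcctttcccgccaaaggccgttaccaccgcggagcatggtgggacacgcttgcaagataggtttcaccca
Clk3: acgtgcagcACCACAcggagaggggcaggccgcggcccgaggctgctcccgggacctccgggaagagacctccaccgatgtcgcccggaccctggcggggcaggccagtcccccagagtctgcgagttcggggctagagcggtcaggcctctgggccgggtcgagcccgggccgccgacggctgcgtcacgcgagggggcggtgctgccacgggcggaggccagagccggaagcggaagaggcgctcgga

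The motif letters begin 187 bases before the start in *Srsf2*, 218 in *Srsf1* and 241 in *Clk3*, so they are found beside genes with lower and with higher values. Of 55 promoters of 41 members in that collection, 10 (18.2%) held the motif within the window from 250 bases before to 50 bases after the start, and 22.4% of all 32851 promoters did. In the 250 bases shown above, 8 of the 55 (14.5%) and 18.6% of all promoters held it. *Srrm2*, next in size of difference, had none there. The letters describe the window only and show no binding. *Clk1*, *Hnrnpll*, *Hnrnpul2* and *Ptbp3* had no entry.

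*Tra2a* and *Tra2b*, which bind GAA-rich enhancers together with SR proteins, had 95.4 and 81.4 FPKM and 68.6 and 61.5 FPKM in KPR- and KPR_restored. Their differences were -0.23 and -0.16, with both intervals below 0. Among SR-related genes, *Srrm2*, a scaffold of nuclear speckles, went from 109 to 81.7 FPKM, a difference of -0.42 with an interval of -0.45 to -0.39. *Son*, the other speckle scaffold, had 52.8 and 45.2 FPKM (-0.23), and *Srrm1*, a coactivator that bridges bound SR proteins, had 59.5 and 52.6 FPKM (-0.18). The other 2 SR-related genes lay above 0. *Rbm39*, a relative of the splicing factor *U2af2*, had 109 and 113 FPKM (0.042), and *Rbm5*, a regulator of *Fas* splicing, had 26.3 and 27.9 FPKM (0.087). Both intervals held 0.

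All 4 kinase genes were higher in the library labelled KPR_restored, with a median of 0.39 and a summed level 32.6% above that in KPR-. *Clk1*, on chromosome 1 from 58410189 to 58424066 (minus strand), rose from 33.2 to 48.1 FPKM. Its difference was 0.53, with a counting interval of 0.42 to 0.64 that holds the threshold. *Clk3* went from 18.4 to 25.5 FPKM, a difference of 0.47 with an interval of 0.35 to 0.59. *Clk2* had 14.2 and 17.6 FPKM, a difference of 0.31 with an interval of 0.15 to 0.46. *Clk4*, the nearest relative of *Clk1*, had 17.9 and 19.9 FPKM, and its difference of 0.15 had an interval of 0.0045 to 0.31. Those of *Clk2* and *Clk4* held 0 when the shortest coding transcript was used. The kinases hold 4 of the 5 largest differences above 0 among the members, with *Hnrnph2* between *Clk2* and *Clk4*. The *Clk1* to *Srsf2* ratio of levels was 0.147 in KPR- and 0.311 in KPR_restored.

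For *Clk1* in particular, transcripts that keep introns and await splicing in the nucleus are well known. The annotation lists 13 transcripts of the gene, of which 7 keep an intron and 2 are marked for nonsense-mediated decay. Its FPKM counts fragments from any of them. For *Clk3* an exon overlaps *Edc3* on the opposite strand, which had 10.9 and 12.7 FPKM, a difference of 0.22. The strand setting of the authors' estimate is not given in the sources used here, so reads of overlapping pairs may be mixed.

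Of 20 hnRNP genes, 18 had a difference below 0, with a median of -0.19 and a range from -0.34 to 0.19. With the longest transcript, the interval lay below 0 for 17 and above 0 for 2. Those of *Hnrnpf*, *Hnrnpd*, *Hnrnph3*, *Hnrnpk* and *Hnrnpr* held 0 when the shortest coding transcript was used. The difference of their summed level was -10.7%. The 5 genes grouped here as A/B, some of which repress exons and compete with SR proteins, were all below 0. Their sum differed by -17.9%. *Hnrnpa1* (-0.34) and *Hnrnpa2b1* (-0.33) had the lowest differences of the class, and *Hnrnpab* followed with -0.27. *Hnrnpa3* had 119 and 102 FPKM (-0.22), and *Hnrnpa0*, a single-exon gene that binds AU-rich mRNA, had 154 and 139 FPKM (-0.15). The ratio of *Hnrnpa1* to *Srsf1* was 3.67 in KPR- and 4.04 in KPR_restored, and that of *Hnrnpa2b1* to *Hnrnpa1* was 1.36 and 1.37.

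The F/H family, which binds runs of G, was split. *Hnrnph1* had 216 and 180 FPKM (-0.26) and *Hnrnph3* had 13.9 and 11.7 FPKM (-0.26), while *Hnrnph2*, the X-linked copy, had 77.8 and 89.0 FPKM, a difference of 0.19 with an interval of 0.13 to 0.26. With *Hnrnpf* at 0.077, the summed level of the family was 771 and 770 FPKM. The ratio of *Hnrnpf* to *Hnrnph1* went from 2.14 to 2.71.

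*Hnrnpm* had 266 and 228 FPKM (-0.22), and *Hnrnpl*, which binds CA repeats, had 250 and 218 FPKM (-0.20). Its paralogue *Hnrnpll*, which regulates splicing in lymphocytes, had 40.3 and 37.6 FPKM (-0.099). *Hnrnpk*, which binds C-rich tracts, had 318 and 293 FPKM (-0.12). *Hnrnpd* (AUF1), which acts on decay of AU-rich mRNA, had 53.2 and 46.2 FPKM (-0.20), and *Hnrnpdl* had 65.2 and 60.5 FPKM (-0.11). The values of *Hnrnpr* were 14.4 and 12.6 FPKM (-0.19). In the U family, *Hnrnpul1* had 94.5 and 81.1 FPKM (-0.22), *Hnrnpul2* had 103 and 94.5 FPKM (-0.12) and *Hnrnpu* was at -0.065. *Hnrnpc*, which coats nascent transcripts at U tracts, had 118 and 117 FPKM. Its interval of -0.071 to 0.026 was the only one of the class to hold 0 with the longest transcript.

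*Ptbp1*, which represses exons next to pyrimidine tracts, was the prevailing member, with 258 FPKM in KPR- and 219 FPKM in KPR_restored. Its difference was -0.24, with an interval of -0.27 to -0.20. *Ptbp2*, the neuronal form whose transcript *Ptbp1* keeps low, had a difference of -0.070 with an interval of -0.23 to 0.089. *Ptbp3* had 18.4 and 16.7 FPKM (-0.13). The level of *Ptbp1* was 30.9 times that of *Ptbp2* in KPR- and 27.6 times in KPR_restored.

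Other genes of the pathway were taken from 10 lists of 142 genes, of which 134 had a mean of at least 1 FPKM. Over these, 83 were below 0, against 49.0% of all genes, and the median was -0.056. Of the 134 genes, 4 were called lower and 4 higher, against 9.29% and 12.1% of all genes. The tri-snRNP and LSm list had 16 of 21 genes below 0 and a median of -0.18. *Lsm3* fell from 103 to 70.9 FPKM (-0.54), and *Prpf6* went from 43.4 to 57.4 FPKM (0.40). The Prp19-associated complex (NTC), which joins the spliceosome at activation, had 10 of 14 genes above 0 and a median of 0.23. In it *Bud31* rose from 38.9 to 62.8 FPKM (0.69), while *Aqr* had 31.7 and 25.2 FPKM (-0.33). Helicases that drive the steps of splicing were below 0 in 7 of 8 genes, with a median of -0.14, from *Ddx46* (-0.40) to *Ddx39b* (0.068).

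The U2 list, which recognizes the branch site, was balanced, with 8 of 16 genes below 0 and a median of -0.0078. *U2af2* had 168 and 140 FPKM (-0.26) and *Sf3b4* had 96.2 and 128 FPKM (0.41). Of the 7 expressed Sm genes 4 were below 0, from *Snrpf* (-0.29) to *Snrpd1* (0.12), with a median of -0.039. In the U1 list of 3 genes, *Snrnp70* was at -0.14 and *Snrpa* at 0.15, with a median of 0.11.

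hnRNPs outside the symbol rule went both ways. *Pcbp1*, a poly(C)-binding protein, rose from 284 to 415 FPKM (0.55), and *Rbmx* (hnRNP G) had 29.4 and 20.8 FPKM (-0.50, just short of the threshold). That list had 5 of 8 genes below 0 and a median of -0.050. Of 25 expressed SR-related genes outside the rule, 16 were below 0, with a median of -0.030. *Sugp1* rose from 17.7 to 27.0 FPKM (0.61), and *Srek1* was at -0.37. Among genes of SR protein kinases and of nuclear importins, 5 of 6 were below 0, with a median of -0.091. *Tnpo1*, the importin of *Hnrnpa1* protein, had 50.5 and 36.8 FPKM (-0.46), and *Srpk2*, a cytoplasmic SR kinase, had 11.2 and 13.6 FPKM (0.28).

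The largest differences were found in the list of other splicing regulators, where 17 of 26 expressed genes were below 0 and the median was -0.16. *Celf2* fell from 11.6 to 6.20 FPKM (-0.90), *Mbnl1*, a muscleblind protein that promotes adult splicing patterns, fell from 39.6 to 22.3 FPKM (-0.83) and *Mbnl3* fell from 2.04 to 1.15 FPKM (-0.83). The remaining muscleblind gene, *Mbnl2*, had 27.9 and 30.1 FPKM (0.11). *Rbm4* rose from 5.85 to 12.1 FPKM (1.05). Except for that of *Mbnl2*, these differences lie outside the range of the 44 members, from -0.54 to 0.53. Those of *Bud31*, *Sugp1* and *Pcbp1* in other lists also lie outside it.

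**Figure D4:**
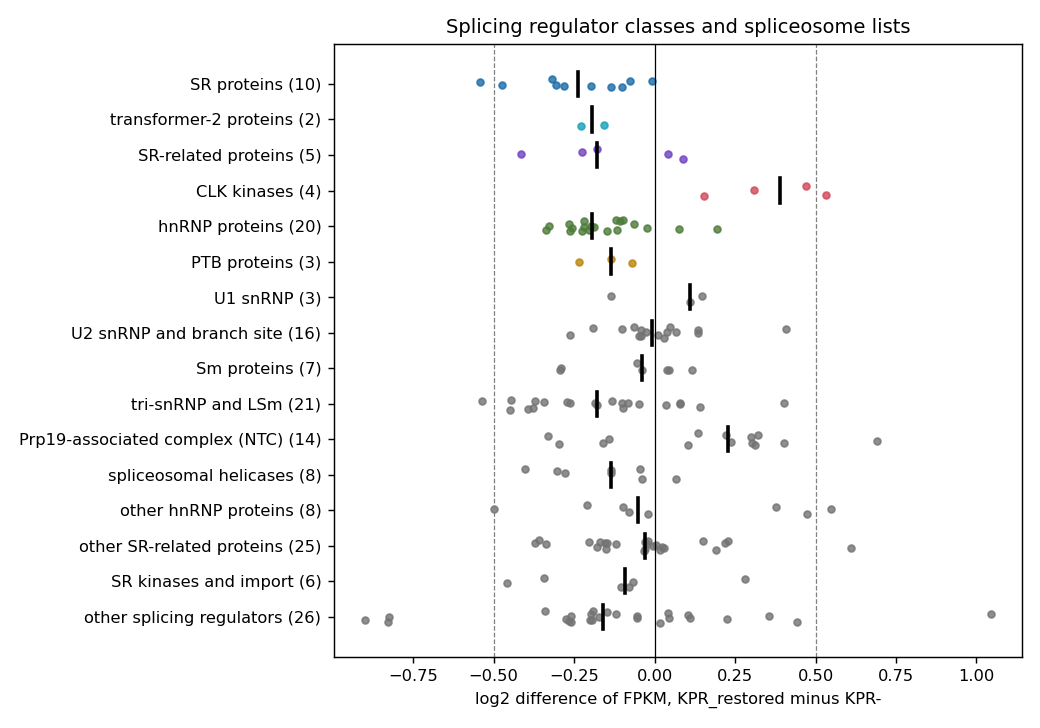
Log2 differences of FPKM, KPR_restored minus KPR-, of each gene (points) in the member classes (coloured) and in the other splicing lists (grey), with black bars at the medians and the number of genes in parentheses. SR and hnRNP genes lie mostly left of 0, CLK kinases and most of the NTC to the right, and *Celf2* and *Rbm4* at the ends.

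Several features of the genes bear on how these values were made. The annotation lists a transcript marked for decay or with a kept intron for 38 of the 44 expressed members. Shares over all genes were not computed for this count or for those of shared stretches and exon overlaps below. Stretches of 100 bases shared with another annotated gene were found in 17 members, and made up 10% or more of the longest RefSeq-matched transcript in 9. The largest shares were 43.5% in *Hnrnpf*, 42.2% in *Hnrnpa1*, 27.9% in *Hnrnpm* and 27.5% in *Hnrnpa3*, so reads of these genes may have been divided with the other genes. For *Hnrnpm* the other gene is *March2*, whose exons overlap it on the same strand and which had 11.8 and 15.1 FPKM (0.36). Among the 35 members with a smaller share, 29 were below 0. Of the 16 members with no shared stretch and no exon overlap with another gene, 12 were below 0. Exons of 20 members overlap another gene. For *Srsf2* these are *Mfsd11*, with 12.4 and 14.3 FPKM (0.21), and *Mettl23*, with 5.00 and 4.68 FPKM (-0.097), both on the opposite strand and far below the level of *Srsf2*. For *Srsf4*, the noncoding gene *Gm12992* on the opposite strand had 11.3 and 10.4 FPKM, above *Srsf4* itself.

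Over all genes, differences were lower in longer transcripts (Spearman's rho -0.21 across 11180 genes, which are not independent replicates). The rho over the 44 members was -0.16. With that trend removed, all 10 SR protein genes remained below 0 with a median of -0.26, all 4 CLK kinases remained above 0 with a median of 0.33, and 16 of 20 hnRNP genes were below 0. *Hnrnpu*, which has a transcript of 7640 bases, was then at 0.11, *Hnrnpr* at 0.035, *Ptbp3* at 0.017 and *Rbm39* at -0.011, each with its sign changed. The part of transcript length in these differences was not tested otherwise.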

How the data were processed

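Poly(A)-selected RNA of 1 KPR- and 1 KPR_restored library was sequenced as paired ends after a directional kit. The authors trimmed the reads, mapped them using TopHat, to mm10 per the submitters' processing notes, and deposited FPKM values estimated using Cufflinks. An EdgeR normalization is also named in the methods, and versions and annotation are not given in the sources used here. From the deposited FPKM, differences were computed as log2(FPKM + 0.005), KPR_restored minus KPR-, with a threshold of 0.5 and a filter on a mean of 1 FPKM, and no further scaling. The pseudocount understates changes of low genes.

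Symbols were matched to GENCODE M21 (GRCm38, the assembly of mm10), 22148 directly and 679 through a synonym. Depth was fitted so that low FPKM of genes with 1 transcript fall on whole fragments. Of the values between 0.5 and 5.5 fragments, 76.5% in KPR- (358 genes) and 78.0% in KPR_restored (337 genes) lay within 0.1 of a whole number (fitted fragment length 214 bases). Fragments were estimated for transcripts with at least 100 bases of effective length, and the depth and interval code was tested on simulated data. Intervals cover counting error only. Cufflinks divides reads among transcripts, so fragments of genes with several transcripts are rough.

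All members are described. Of the other lists, written from general knowledge, the largest rise and the largest fall were named, and *Mbnl1*, *Mbnl2* and *Mbnl3* after their values were seen. The members and lists were chosen with earlier results of these data known. Alternatives were pseudocounts of 0.1 and 1, a threshold of 1, other filters or none, scaling by total (TPM) or upper quartile, centring on the median gene, removal of the length trend in 20 length bins, another transcript choice and a motif of ACCACA alone. The filter on a mean of 50 FPKM was added after the data were seen. Computation used scipy 1.17.1, pandas 2.3.3 and numpy 2.4.6 under Python 3.11.15, and plots matplotlib 3.10.9.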

Additional observations from a re-analysis of the deposited data

How the results depend on the processing

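No paired analysis was possible because each group is 1 library. Over all alternatives, 231 of the summary values stayed close to those reported and 22 did not, and 4 members changed sign. For the CLK median of 0.39, a value of 0.35 was labelled close and 0.33 was not. This tally does not measure robustness, because many values could not move. A threshold of 1 leaves every median and count below 0 as it was, and a pseudocount cannot change a sign. A filter on a mean of 5 FPKM keeps all 44 members. The 2 member sums in TPM are in another unit and are among the 22 for that reason. The count of members below 0 was between 34 and 36 under every alternative that kept all 44 members, and 28 of 31 with a mean of at least 50 FPKM. With no filter, 2 members were called higher, since *Srsf12* then counts, and the median of other splicing regulators was -0.089. A threshold of 1 left 0 members called higher and 0 lower. Scaling to the upper quartile shifted all genes to a median of -0.033 and gave 2 members lower (*Srsf2* and *Srsf1*) and 0 higher, with *Clk1* at 0.49. With the length trend removed, *Clk1* was at 0.45 and 0 members were called higher. Class medians were then 0.33 for CLK kinases, -0.063 for PTB proteins and -0.026 for SR-related proteins. List medians were 0.027 for U1, -0.13 for Sm, -0.25 for the tri-snRNP, 0.15 for the NTC, 0.015 for other hnRNPs and -0.076 for other splicing regulators. *Hnrnpr*, *Hnrnpu* and *Ptbp3* reversed to 0.035, 0.11 and 0.017, and *Rbm39* was at -0.011. Restricted to a mean of at least 50 FPKM, 0 members were called higher, and *Ptbp1* alone stood for the PTB proteins (-0.24, 1 gene below 0). With the shortest coding transcript, 3 intervals lay above 0. Among them is that of *Clk1*, whose transcript has the same length in both choices. On the TPM scale the members summed to 11254 and 9922 TPM. The causes were not tested beyond what each construction shows. With 1 library per group, depth limits the counting error but not the variation between cultures.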
